A study of Mus musculus with 8 samples.

Results

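H3K9ac peaks of BM cells from *GFI1-KD*, *NUP98-HOXD13-tg* mice were compared with those from *GFI1-36N*, *NUP98-HOXD13-tg* mice, both treated with vehicle. The comparison used the 2 libraries of the series labelled GFI1-KD or GFI1-36N without curcumin, of 8 samples in all, 6 of which have a peak list. These lists hold 39272 and 39564 peaks, 78836 of the 220499 peaks of the series. The labels give bone marrow cells of C57BL/6 mice, and all groups carry the *NUP98-HOXD13* transgene, a fusion gene that serves as a model for MDS in mice. The methods of the study name frozen BM cells, whereas the title of its ChIP-seq figure speaks of c-kit+ cells. *GFI1-KD* mice express a lower amount of GFI1, and *GFI1-36N* mice express, from the murine *Gfi1* locus, a cDNA of the human variant in which the serine at position 36 is replaced by asparagine. Vehicle was DMSO by the methods of the study, and the curcumin groups, used here only to follow the same sites in further mice, received 20 mg/kg weekly by injection. The name of the *GFI1-36N* vehicle list gives a heterozygous mouse, that of the *GFI1-36N* curcumin list a homozygous mouse and those of *GFI1-KD* a homozygous one, none of which the labels state. Each group is 1 library, so the differences have no replicate check and come without a p-value. Intervals cover counting error only. In whole bone marrow, fewer cells of a type and less acetylation per cell cannot be told apart.

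GFI1 is a zinc finger protein that represses transcription in hematopoietic stem cells and myeloid and lymphoid precursors. It binds DNA with an AATC core and brings the demethylase LSD1 (*Kdm1a*) and histone deacetylases to its target genes, which remove marks of active chromatin. Acetylation of lysine 9 of histone H3 marks active promoters and many active enhancers. Its paralog GFI1B acts in erythroid cells and megakaryocytes, and NUP98-HOXD13 itself is known to keep *Hoxa* genes active in immature cells.

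The regions at which the libraries differed are shown here by the sequence of mm10 (GRCm38) from 100 bases before to 100 bases after the summit, the base of highest signal. The site at *Hlf*, a transcription factor of stem cells, is the highest-ranked distal peak of *GFI1-KD* next to a gene of the lists used below, and the site at *Hoxc6* is its counterpart in *GFI1-36N*. Sites at *Rhag*, a red cell membrane protein, at *Pbx3*, a HOX cofactor, and at *Irf8*, a factor of monocyte and dendritic cell fate, were added after their values were seen, as examples of erythroid, HOX and monocyte loci. The annotation places the *Hlf* site over an exon and the other 4 sites in introns, not in each case of the gene named. The 250 bases upstream of the RefSeq start of *Gfi1* come from RefSeq (GRCm38.p6), and most of them lie inside the gene as GENCODE annotates it. Capitals mark matches to short motifs searched on both strands, namely AAATCA for GFI1, AGATAA or TGATAA for GATA factors, TTGCNNAA for C/EBP, GGAAGT for PU.1, TGTGGT for RUNX, TGANTCA for AP-1, GAAANNGAA for IRF and TGACAG for MEIS.
*Hlf*, distal, *GFI1-KD* alone, chr11:90387736-90387936, plus strand: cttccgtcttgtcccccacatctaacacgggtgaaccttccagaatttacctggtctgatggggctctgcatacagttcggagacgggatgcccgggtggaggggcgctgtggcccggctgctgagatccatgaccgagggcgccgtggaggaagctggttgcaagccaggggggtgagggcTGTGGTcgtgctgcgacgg
*Rhag*, distal, *GFI1-KD* alone, chr17:40806402-40806602, plus strand: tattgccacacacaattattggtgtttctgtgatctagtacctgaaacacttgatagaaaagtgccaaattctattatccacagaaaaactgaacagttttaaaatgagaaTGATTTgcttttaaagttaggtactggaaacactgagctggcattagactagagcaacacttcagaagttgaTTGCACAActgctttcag
*Hoxc6*, distal, *GFI1-36N* alone, chr15:103000641-103000841, plus strand: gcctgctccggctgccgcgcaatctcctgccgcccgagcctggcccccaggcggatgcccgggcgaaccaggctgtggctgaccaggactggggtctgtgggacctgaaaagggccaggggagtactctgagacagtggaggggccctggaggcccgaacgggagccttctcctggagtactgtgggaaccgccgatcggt
*Pbx3*, distal, *GFI1-36N* alone, chr2:34364955-34365155, plus strand: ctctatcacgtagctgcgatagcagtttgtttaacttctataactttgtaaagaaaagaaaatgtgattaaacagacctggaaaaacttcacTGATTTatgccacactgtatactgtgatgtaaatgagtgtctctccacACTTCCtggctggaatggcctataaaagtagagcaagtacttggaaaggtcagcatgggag
*Irf8*, distal, *GFI1-36N* alone, chr8:120812795-120812995, plus strand: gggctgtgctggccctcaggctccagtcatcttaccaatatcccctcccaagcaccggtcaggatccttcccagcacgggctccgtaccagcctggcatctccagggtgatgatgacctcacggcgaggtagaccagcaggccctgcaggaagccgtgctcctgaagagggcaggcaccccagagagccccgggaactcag
*Gfi1* promoter, chr5:107725806-107726055, minus strand: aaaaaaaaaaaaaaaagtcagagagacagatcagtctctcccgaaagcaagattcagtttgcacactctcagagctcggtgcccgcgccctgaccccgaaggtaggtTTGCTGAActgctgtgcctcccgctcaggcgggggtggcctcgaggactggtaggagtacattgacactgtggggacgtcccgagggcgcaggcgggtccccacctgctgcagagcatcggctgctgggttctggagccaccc
*Hlf* showed a RUNX match, *Rhag* showed a GFI1 and a C/EBP match, *Pbx3* a GFI1 and a PU.1 match and the *Gfi1* promoter a C/EBP match, whereas none of the 8 motifs was found in the *Hoxc6* and *Irf8* windows. Such matches are common. Among all 34249 distal sites, 10.4% of windows held the GFI1 motif, 7.60% the C/EBP, 15.6% the PU.1 and 16.6% the RUNX motif, and 9.56% of 32851 RefSeq promoters of 250 bases held the C/EBP motif.

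Peaks of both lists were called by the authors with MACS2, which gives each peak a fold enrichment, the ratio of the fragments at its summit to the local background. Fold enrichment is not normalized between lists, so each peak was given its rank among all peaks of its own list, from 0 for no peak to 100 for the strongest. A difference of at least 20 rank points was called. Whole fragments at the summit were recovered from fold enrichment and p for every peak of both lists. The median summit held 35 fragments in *GFI1-KD* and 30 in *GFI1-36N*, and the lowest 17 and 16, so that absence of a peak is a signal below this level and not absence of the mark. Depth was estimated from the same relation, with the shortest peak of each list (211 bp in *GFI1-KD* and 198 bp in *GFI1-36N*) taken as the fragment length. On this assumption the *GFI1-KD* library had 0.973 times the fragment depth of the *GFI1-36N* library, but the control behind its list was 0.854 times as deep. The control samples labelled in the series are an input of *GFI1-36S* vehicle and a rabbit IgG of *GFI1-36N* vehicle, with none from *GFI1-KD*. Which control each list was called against is not given. In *GFI1-KD* 73.4% of peaks, against 87.4% in *GFI1-36N*, were tested against the genome-wide rather than a local background. The part of the unequal controls in the results was not tested. Ranks by summit fragments, which do not use the control for the height of a peak, are given where they matter. They order the same called peaks, and a gene without a peak keeps rank 0. Whether a peak is absent thus still depends on the control. Neither list had a peak on chromosome Y, and both had peaks at *Xist*.

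At promoters the libraries were alike. Promoters were the 1 kb before and after every TSS of the protein-coding genes. Among 20657 genes analysed, 11511 had a promoter peak in *GFI1-KD* and 11097 in *GFI1-36N*, and 10841, which is 92.1% of the 11767 with a peak in at least 1 library, had it in both. A further 670 promoters had a peak in *GFI1-KD* alone and 256 in *GFI1-36N* alone, so that *GFI1-KD* held 72.4% of the promoters marked in 1 library (Wilson 95% interval 69.4% to 75.1%). These were weak peaks, with a median rank of 48.3 in *GFI1-KD* and 31.7 in *GFI1-36N*, against 87.2 and 87.1 for promoters with a peak in both. Over all 11767 genes the median difference, *GFI1-KD* minus *GFI1-36N*, was 0.57 points, with quartiles of −1.80 and 3.47. The promoter ranked higher in *GFI1-KD* by at least 20 points at 856 genes (7.27%) and higher in *GFI1-36N* at 330 genes (2.8%). Of the called genes, 557 and 189 had no peak in the other library. A call was counted as holding where it was kept in a window of 3 kb, with the summit inside the promoter, and with ranks by summit fragments, which was so for 711 and 227 genes.

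**Figure D1:**
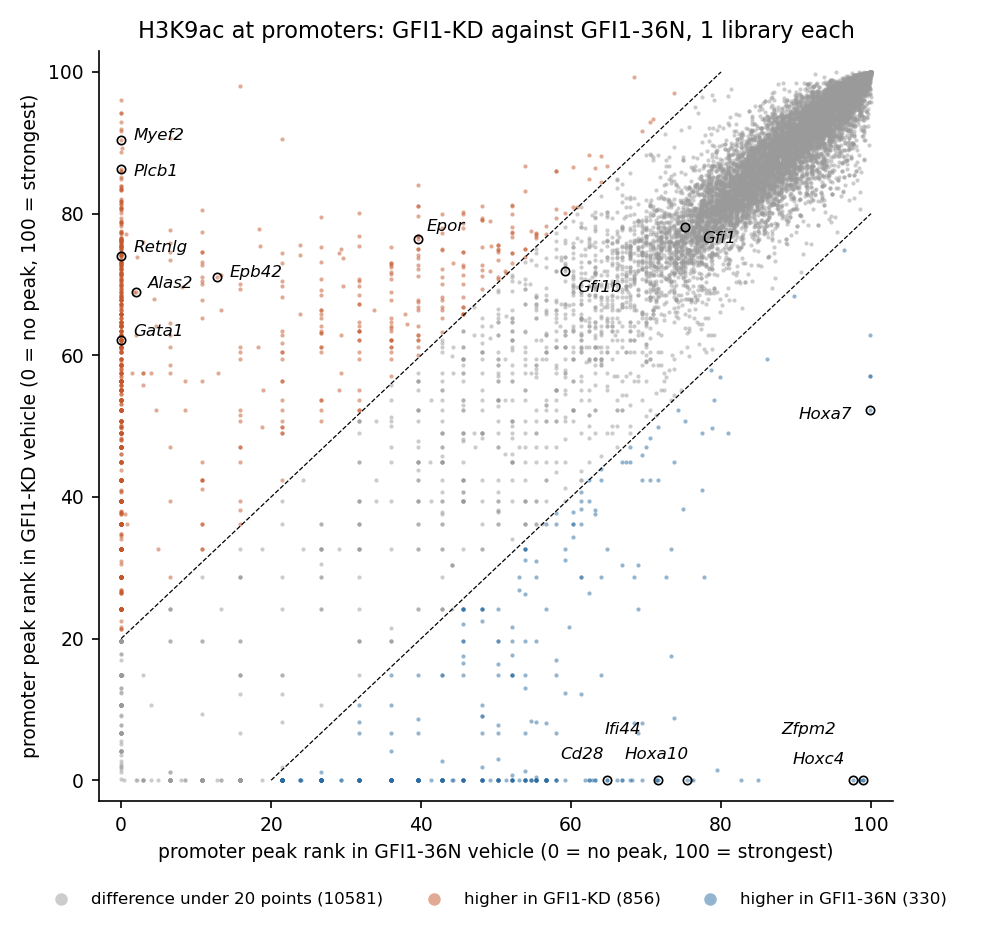
Each point is 1 of 11767 genes, placed by the rank of its strongest promoter peak in the *GFI1-36N* (x axis) and the *GFI1-KD* (y axis) vehicle library, with dashed lines at a difference of 20 points. Most genes lie along the diagonal at high ranks in both, while the 856 genes higher in *GFI1-KD* and the 330 higher in *GFI1-36N* gather at the axes, where the other library has no peak or a weak one.

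*Gfi1* itself had a promoter peak in both libraries, below the median rank of promoters with a peak in both. The gene spans chr5:107716657-107726036 of mm10 and is read from the minus strand. The *GFI1-KD* peak spanned chr5:107722779-107727353 with 96 fragments at its summit, a fold enrichment of 13.3 and rank 78.1. In *GFI1-36N* the peak spanned chr5:107724177-107727214 with 66 fragments, a fold enrichment of 9.63 and rank 75.2. Summit height over the genome background was thus 1.40 times as high in *GFI1-KD* (exact 95% counting interval 1.02 to 1.95), and the ranks differed by less than 20 points. The *GFI1-KD* summit lay 1074 bp from the nearest TSS and the *GFI1-36N* summit 755 bp, so that only the latter lay inside the promoter and the difference was −75.2 points where the summit had to lie inside. Of the distal sites closest to *Gfi1*, 6 were found in *GFI1-KD* alone, 2 in *GFI1-36N* alone and 3 in both. *Gfi1b* ranked 71.9 in *GFI1-KD* with 65 fragments and 59.2 in *GFI1-36N* with 36 fragments, a ratio of 1.74 (1.14 to 2.70). The locus of *Gfi1* was altered in these strains, and the peaks do not measure the amount of GFI1 protein.

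Genes of the GFI1 complex had promoter peaks of like rank in both libraries. All 12 genes of a list of GFI1 and its corepressors had a promoter peak in both, none was called, beside 10.1% of all genes in either direction, and the median difference was 1.33 points. *Kdm1a*, the histone demethylase LSD1, ranked 94.8 in *GFI1-KD* and 94.6 in *GFI1-36N*, *Hdac1* ranked 91.7 and 90.2, and *Ehmt2*, a histone H3 methyltransferase, 86.0 and 92.0. For 20 genes described as GFI1 targets the median was −0.59 points. Called higher were 2 in *GFI1-KD* and 2 in *GFI1-36N*, beside 7.27% and 2.8% of all genes. *Rasgrp1*, a Ras activator of lymphoid cells, ranked 65.8 in *GFI1-KD* and 26.7 in *GFI1-36N*. *Hoxa9*, a homeobox gene of immature myeloid cells, went the other way with ranks of 62.8 in *GFI1-KD* and 99.8 in *GFI1-36N*, and *Il7r*, the interleukin-7 receptor, had no peak in *GFI1-KD* and rank 26.7 in *GFI1-36N*. The distal sites found in 1 library near these 20 genes were 25 in *GFI1-KD* and 44 in *GFI1-36N*, beside 10433 and 8189 over all genes. The single locus *Irf8* held 19 of the 44.

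*Hoxc* genes gave the widest single promoter differences in favour of *GFI1-36N*. Of 23 HOX genes and cofactors analysed, 18 had a promoter peak in at least 1 library. In *GFI1-36N* 9 of them ranked higher by at least 20 points and in *GFI1-KD* 3 did, of which 6 and 3 held, beside 2.8% and 7.27% of all genes, and the median difference was −18.3 points. Neighbouring genes are not separate observations in this count. *Hoxc4* and *Hoxc5* were scored by the same peak, and so were *Hoxa3*, *Hoxa7* and *Hoxa9* in *GFI1-36N*. Most of the span came from the *Hoxc* cluster on chromosome 15. *Hoxc4* and *Hoxc5*, which share the peak chr15:103013779-103020707, ranked 99.0 in *GFI1-36N* with 229 fragments and had no peak in *GFI1-KD*. Its summit lay 3824 bp from the *Hoxc4* TSS and 1295 bp from the *Hoxc5* TSS, outside both promoters. With the summit required inside the promoter, the difference was −91.2 points for *Hoxc4* and 0 for *Hoxc5*. *Hoxc6* ranked 98.6 with 219 fragments, *Hoxc8* 55.3 with 33 fragments and *Hoxc9*, which was not on the list, 68.2 with 57 fragments, again with no peak in *GFI1-KD*. From 60 kb before to 25 kb after the *Hoxc4* TSS, *GFI1-36N* had 17 peaks covering 33.2 kb and *GFI1-KD* had 0 peaks. Among 4 libraries the *GFI1-KD* vehicle library stood alone in this, since the *GFI1-KD* curcumin library had 14 peaks over 37.2 kb and the *GFI1-36N* curcumin library 22 peaks over 42.3 kb.

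The *Hoxa* cluster on chromosome 6 differed in shape as well as in height. In *GFI1-36N* a single peak, chr6:52210887-52231219, with 273 fragments at its summit covered *Hoxa3*, *Hoxa7* and *Hoxa9*, each of which therefore had rank 99.8. *GFI1-KD* had separate smaller peaks there, with 43 fragments at *Hoxa3*, 34 fragments and rank 52.2 at *Hoxa7*, and 44 fragments and rank 62.8 at *Hoxa9*. With the summit required inside the promoter, the difference stayed at −47.6 points for *Hoxa7*, whereas *Hoxa9* turned to 62.8 points in favour of *GFI1-KD*, because the summit of the wide peak lay 9172 bp from its TSS. *Hoxa10* had rank 75.5 in *GFI1-36N* and no peak in *GFI1-KD*. *Hoxa4* and *Hoxa5* were reversed, with ranks of 75.4 and 42.3 in *GFI1-KD* and no peak in *GFI1-36N*. *Pbx3*, the HOX cofactor whose distal site is printed above, ranked 85.8 with 154 fragments in *GFI1-KD* and 98.7 with 221 fragments in *GFI1-36N*, a difference below 20 points. Both curcumin libraries had rank 99.7 or more at *Hoxa7* and *Hoxa9*, like *GFI1-36N* vehicle. *Hoxa10* was reversed with curcumin, with rank 65.4 in *GFI1-KD* and no peak in *GFI1-36N*. *Hoxa4* ranked 65.4 in *GFI1-KD* curcumin and 55.3 in *GFI1-36N* curcumin, and *Hoxa5* had a peak in neither. Around the HOX genes and cofactors 18 distal sites were found in *GFI1-36N* alone and 6 in *GFI1-KD* alone, beside 8189 and 10433 over all genes.

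**Figure D2:**
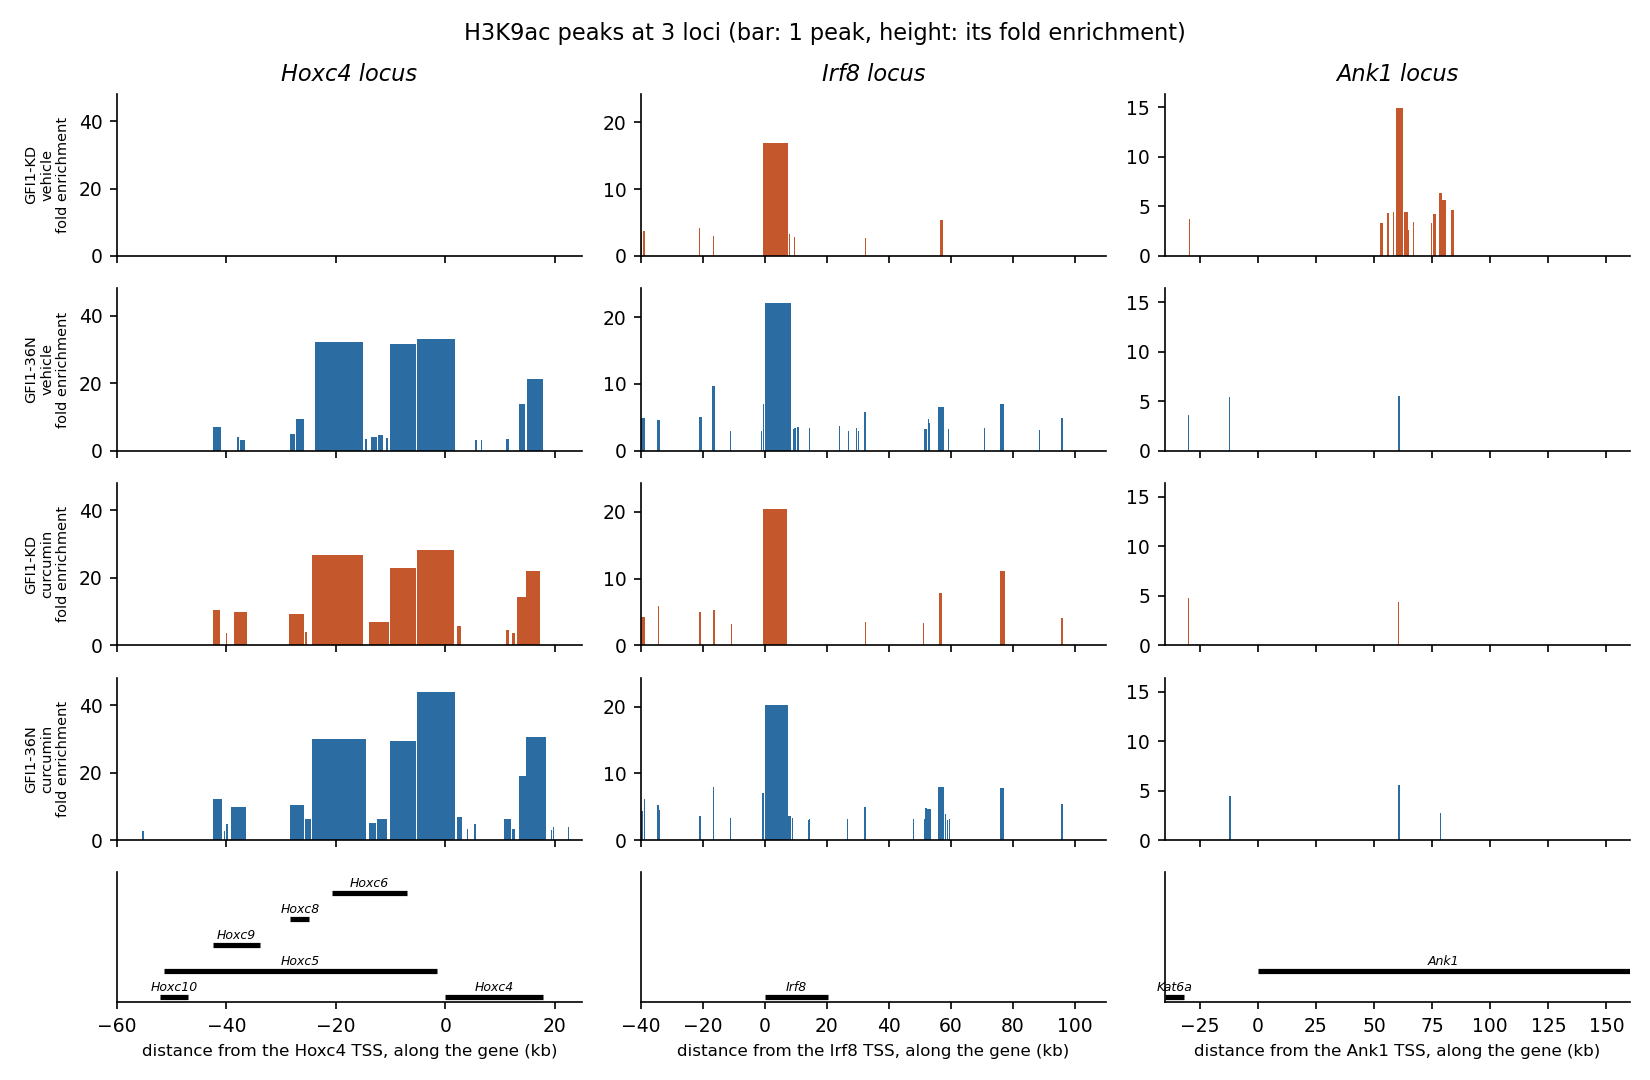
Peaks of 4 libraries (rows, with a track of protein-coding genes at the bottom) at the *Hoxc4*, *Irf8* and *Ank1* loci, by distance from the TSS in kb along the gene (x axis) and fold enrichment (y axis), each bar being 1 peak with its width to scale. The *Hoxc* panel is empty in *GFI1-KD* vehicle and filled in the other libraries, *Irf8* has 29 peaks in *GFI1-36N* vehicle against 10 in *GFI1-KD* vehicle, and *Ank1* has 17 in *GFI1-KD* vehicle against 3 in *GFI1-36N* vehicle.

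Erythroid promoters ranked higher in *GFI1-KD*. Of 39 analysed, 38 had a promoter peak, and 35 of these ranked higher in *GFI1-KD* and 3 in *GFI1-36N*. The difference reached 20 points at 16 genes, all higher in *GFI1-KD*, 14 of which held, beside 7.27% of all genes. The median difference was 16.9 points (0.57 over all genes), with a median rank of 77.7 in *GFI1-KD* and 61.1 in *GFI1-36N*. *Gata1*, the principal transcription factor of red cell development, ranked 62.1 in *GFI1-KD* with 43 fragments and had no peak in *GFI1-36N*. *Alas2*, the erythroid enzyme that starts heme synthesis, had 56 fragments and rank 69.0 in *GFI1-KD* against 21 fragments and rank 1.94 in *GFI1-36N*, a height ratio of 2.57 (1.53 to 4.47). The erythropoietin receptor gene *Epor* had 90 and 26 fragments with ranks of 76.4 and 39.6, a ratio of 3.34 (2.14 to 5.39). These 3 genes lay in the upper part of the *GFI1-KD* list and below the middle of the *GFI1-36N* list or outside it.

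Genes of the red cell membrane went the same way. *Epb42*, which encodes protein 4.2 of the membrane skeleton, ranked 71.1 in *GFI1-KD* and 12.8 in *GFI1-36N*. *Add2*, an adducin of the same skeleton, ranked 76.9 and 31.7. For *Rhag* and *Rhd*, proteins of the Rh complex, ranks were 74.5 and 50.3 and 68.6 and 26.7. *Slc38a5*, an amino acid transporter, ranked 61.2 in *GFI1-KD* without a peak in *GFI1-36N*. The globin genes followed, with *Hbb-bs* at 59.5 and *Hbb-bt* at 58.6 in *GFI1-KD* and no peak in *GFI1-36N*, and *Hba-a2* at 68.6 and no peak, but reads from the near-identical globin copies can be assigned to either, and the call at *Hba-a2* was lost with the summit inside the promoter. Genes with high ranks in both libraries differed little in rank but could differ in height. *Klf1*, an erythroid Krüppel-like factor, ranked 86.2 and 82.0 with a height ratio of 1.56 (1.20 to 2.03), and *Tal1*, a factor of stem and erythroid cells, ranked 88.2 and 71.6 with a ratio of 3.02 (2.22 to 4.17). *Nfe2*, *Xpo7* and *Tmcc2* were the 3 genes that ranked higher in *GFI1-36N*, with differences of −5.21, −5.09 and −0.93 points.

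The distal sites of erythroid genes showed the widest surplus among the 19 lists, with 105 found in *GFI1-KD* alone and 10 in *GFI1-36N* alone, beside 10433 and 8189 over all genes. At *Ank1*, which encodes ankyrin 1 of the red cell membrane, 14 distal sites were found in *GFI1-KD* alone and 1 in *GFI1-36N* alone. Between 40 kb before and 160 kb after its TSS *GFI1-KD* had 17 peaks over 15.2 kb and *GFI1-36N* 3 peaks over 1.99 kb. Of 7 enzymes of heme biosynthesis with a peak *Alas2* alone was called, higher in *GFI1-KD*, beside 7.27% of all genes. The median was 1.06 points. *Urod* ranked 87.7 and 82.2, and *Fech*, the last enzyme of the pathway, 88.9 and 88.3.

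Granule and late neutrophil genes also ranked higher in *GFI1-KD*, but most of these calls depended on the window. Of 22 neutrophil genes analysed 21 had a promoter peak, 8 were called higher in *GFI1-KD* and 0 in *GFI1-36N*, beside 7.27% and 2.8% of all genes, and the median difference was 13.5 points. *Retnlg*, a resistin-like gene of mature neutrophils, ranked 74.0 with 96 fragments in *GFI1-KD* and had no peak in *GFI1-36N*, and *Ly6g*, the surface antigen of mouse neutrophils, ranked 48.3 with 43 fragments against no peak. These were the 2 calls that held. *S100a9*, a calcium-binding protein of neutrophils and monocytes, ranked 89.2 with 180 fragments in *GFI1-KD* and 0.09 with 19 fragments in *GFI1-36N*, but these summits lay 1577 and 580 bp from the TSS and the difference was 17.2 points in the 3 kb window. *Ltf*, which encodes lactoferrin, and *Mmp9*, a gelatinase, ranked 75.4 and 71.9 in *GFI1-KD* against no peak, with summits 1163 and 1027 bp from the TSS, just outside the promoter. Other members differed by less than 20 points, among them 4 genes of primary granules, picked with their values known. *Mpo* ranked 68.7 in *GFI1-KD* and 79.1 in *GFI1-36N*, *Elane* 49.0 and 50.3, *Ctsg* 69.2 and 76.9, and *Prtn3* 69.8 and 67.3. Around the neutrophil genes 59 distal sites were found in *GFI1-KD* alone and 8 in *GFI1-36N* alone, beside 10433 and 8189 over all genes, among them 6 and 0 at *S100a9* and 6 and 0 at *Mmp9*.

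**Figure D3:**
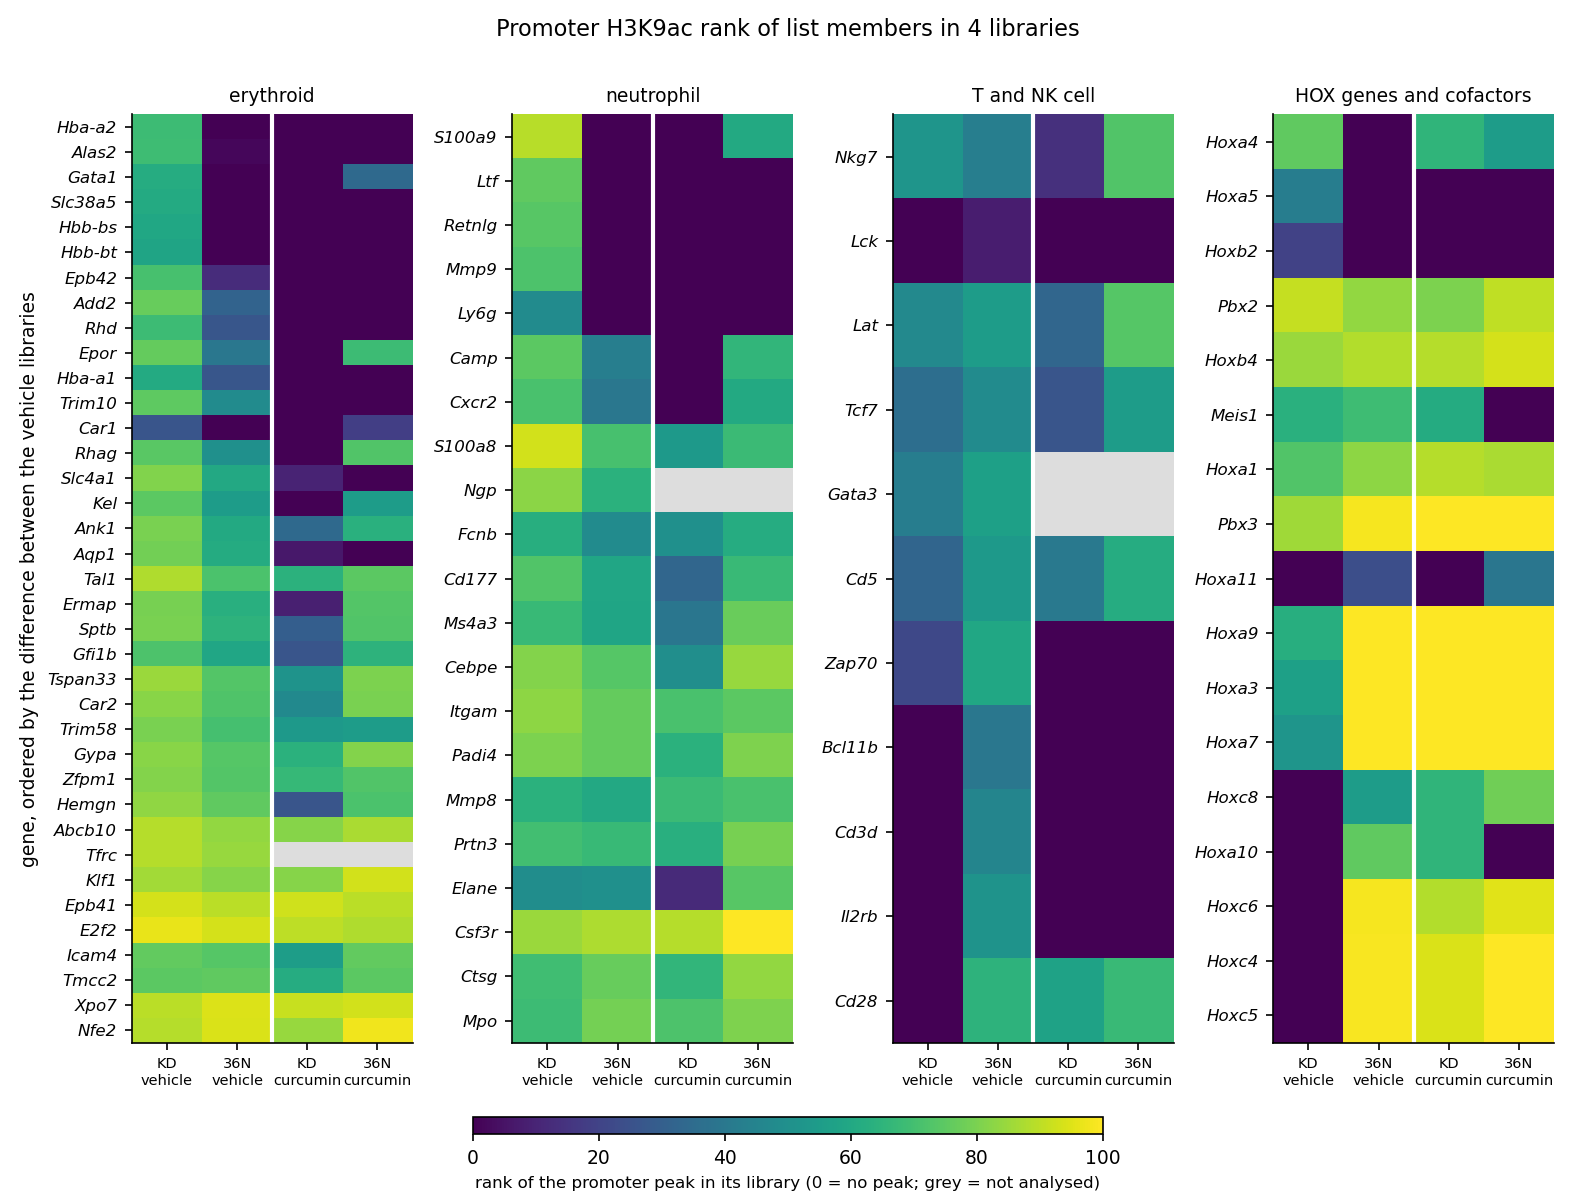
Rank of the promoter peak (colour, 0 for no peak to 100, grey for not analysed) of members of the erythroid, neutrophil, T and NK cell and HOX lists (rows, a few members not shown) in the vehicle and curcumin libraries of *GFI1-KD* and *GFI1-36N* (columns). The upper rows of the erythroid and neutrophil panels are bright in *GFI1-KD* vehicle and dark in most other columns, and the lower rows of the HOX panel are dark in *GFI1-KD* vehicle and mostly bright in the others.

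Monocyte genes differed little at promoters, and *Irf8* held many of their distal sites of 1 library. All 22 genes had a promoter peak in at least 1 library, the median difference was −3.68 points and 17 ranked higher in *GFI1-36N*, but none of these by 20 points. *Irf8* ranked 81.9 in *GFI1-KD* with 123 fragments and 92.1 in *GFI1-36N* with 153 fragments, a height ratio of 0.78 (0.61 to 0.99). *Csf1r*, the receptor of macrophage colony-stimulating factor, ranked 77.4 and 84.4, and *Ms4a6c*, a membrane protein of monocytes, 71.8 and 90.7. *Vcan*, which encodes versican, was the only one called, beside 10.1% of all genes in either direction. It had rank 72.4 in *GFI1-KD* and no peak in *GFI1-36N*, and this call did not hold. Of the distal sites near these genes found in 1 library, 49 were in *GFI1-36N* and 27 in *GFI1-KD*, beside 8189 and 10433 over all genes. *Irf8* accounted for 19 and 0 of them, *Csf1r* for 6 and 0 and *Cx3cr1*, a chemokine receptor, for 4 and 0, whereas *Zeb2*, a repressor of myeloid and dendritic cells, had 2 in *GFI1-36N* and 9 in *GFI1-KD*. Between 40 kb before and 110 kb after the *Irf8* TSS, *GFI1-36N* vehicle had 29 peaks and *GFI1-KD* vehicle 10, and the curcumin libraries with these labels had 27 and 11.

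At promoters the medians of T and NK cell and of B cell genes differed in sign. Of 23 T and NK cell genes analysed, 11 had a promoter peak, and 6 were called higher in *GFI1-36N*, all of which held, and 0 in *GFI1-KD*, beside 2.8% and 7.27% of all genes. The median rank of the 11 was 21.6 in *GFI1-KD* and 51.3 in *GFI1-36N*, and the median difference −21.2 points, or −4.58 when ranked among promoter peaks. *Cd28*, a costimulatory receptor, had rank 64.7 with 42 fragments in *GFI1-36N*, *Il2rb*, a chain of the interleukin-2 receptor, 51.3 with 37 fragments and *Cd3d*, a chain of the T-cell receptor complex, 45.7 with 28 fragments, all 3 with no peak in *GFI1-KD*. *Bcl11b* and *Zap70* had ranks of 39.6 and 59.7 in *GFI1-36N* against no peak and 21.6. *Cd3e*, *Cd3g*, *Cd4* and *Cd8a* had no promoter peak in either library. Near the T and NK cell genes 20 distal sites were found in *GFI1-36N* alone and 4 in *GFI1-KD* alone, beside 8189 and 10433 over all genes. Of 17 B cell genes 9 had a peak, and 5 were called higher in *GFI1-KD*, all of which held, and 0 in *GFI1-36N*, beside 7.27% and 2.8% of all genes. Among the 5 were *Ebf1*, a factor of early B cells, with rank 56.3 and 37 fragments, and *Bank1*, a B-cell scaffold protein, with rank 52.2 and 34 fragments, both against no peak. *Blnk*, an adaptor of the B-cell receptor, ranked 63.5 and 21.4. The defining genes *Pax5*, *Ms4a1* and *Rag1* had no promoter peak in either library. The B cell median was 32.6 points, but it was 3.24 without the genes marked in 1 library alone and 3.43 when ranked among promoter peaks. Of the distal sites near B cell genes 4 were found in *GFI1-KD* alone and 6 in *GFI1-36N* alone, beside 10433 and 8189 over all genes. The lymphoid peaks named here held between 22 and 45 fragments, beside medians of 35 and 30 over the lists.

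Markers of the remaining lineages were few or small in number. Of 6 mast cell, basophil and eosinophil genes with a peak, 4 were called higher in *GFI1-KD*, beside 7.27% of all genes, and 2 of these held. *Il1rl1*, the receptor of interleukin-33, had rank 65.8 against no peak. For 11 megakaryocyte genes the median was 10.7 points, with a 95% interval of −6.03 to 55.1. Of them 5 were called higher in *GFI1-KD* and 1 in *GFI1-36N*, beside 7.27% and 2.8% of all genes, and 1 of each held. *Gp1ba*, a platelet glycoprotein, ranked 56.3 and 21.4, and *Selp*, which encodes P-selectin, had rank 55.3 in *GFI1-36N* and no peak in *GFI1-KD*. Only 3 of 14 genes of stroma, endothelium and other tissues had a promoter peak. The cell composition of the marrow was not measured in these lists, and the part of the marker lists in the differences at other genes was not tested.

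Among stem and progenitor genes 21 of 24 had a peak, and the median was −4.33 points. Of the 21, 1 was called higher in *GFI1-KD* and 3 in *GFI1-36N*, beside 7.27% and 2.8% of all genes. *Mecom*, a factor of stem cells, had no peak in *GFI1-KD* and rank 58.0 in *GFI1-36N*, and *Cd34*, a progenitor surface antigen, ranked 50.7 and 75.2, a height ratio of 0.48 (0.31 to 0.74). *Hlf* was opposite, with rank 56.3 in *GFI1-KD* and no peak in *GFI1-36N*, at the gene whose distal site is printed above. *Kit*, the receptor that marks the immature cells of this model, ranked 72.4 in *GFI1-KD* and 56.7 in *GFI1-36N*, a difference under 20 points with a height ratio of 1.9 (1.24 to 2.96). Housekeeping and signalling lists stayed close to the median of all genes. No member was called among 22 ribosomal protein genes (median −0.78), 21 cell cycle genes (−1.49) and 22 immediate early genes (−0.83). Of all genes 10.1% were called in either direction. Of 44 interferon-stimulated genes 1 was called, higher in *GFI1-36N*, beside 2.8% of all genes. It was *Ifi44*, with no peak in *GFI1-KD* and rank 71.6 with 55 fragments in *GFI1-36N*, and the list median was −0.57. The NF-κB pathway had a median of 1.52 with 2 of 19 genes called higher in *GFI1-KD*, beside 7.27% of all genes. Of these *Cxcl2*, a neutrophil chemokine, held with rank 68.2 in *GFI1-KD* against no peak. MHC class II genes had a median of 4.10 points, with *H2-Ab1* (69.2 and 26.7) and *Ciita* (28.6 and no peak) called higher in *GFI1-KD* and *H2-Eb1* (22.1 and 45.7) in *GFI1-36N*. These were 2 and 1 of 10 genes with a peak, beside 7.27% and 2.8% of all genes.

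**Figure D4:**
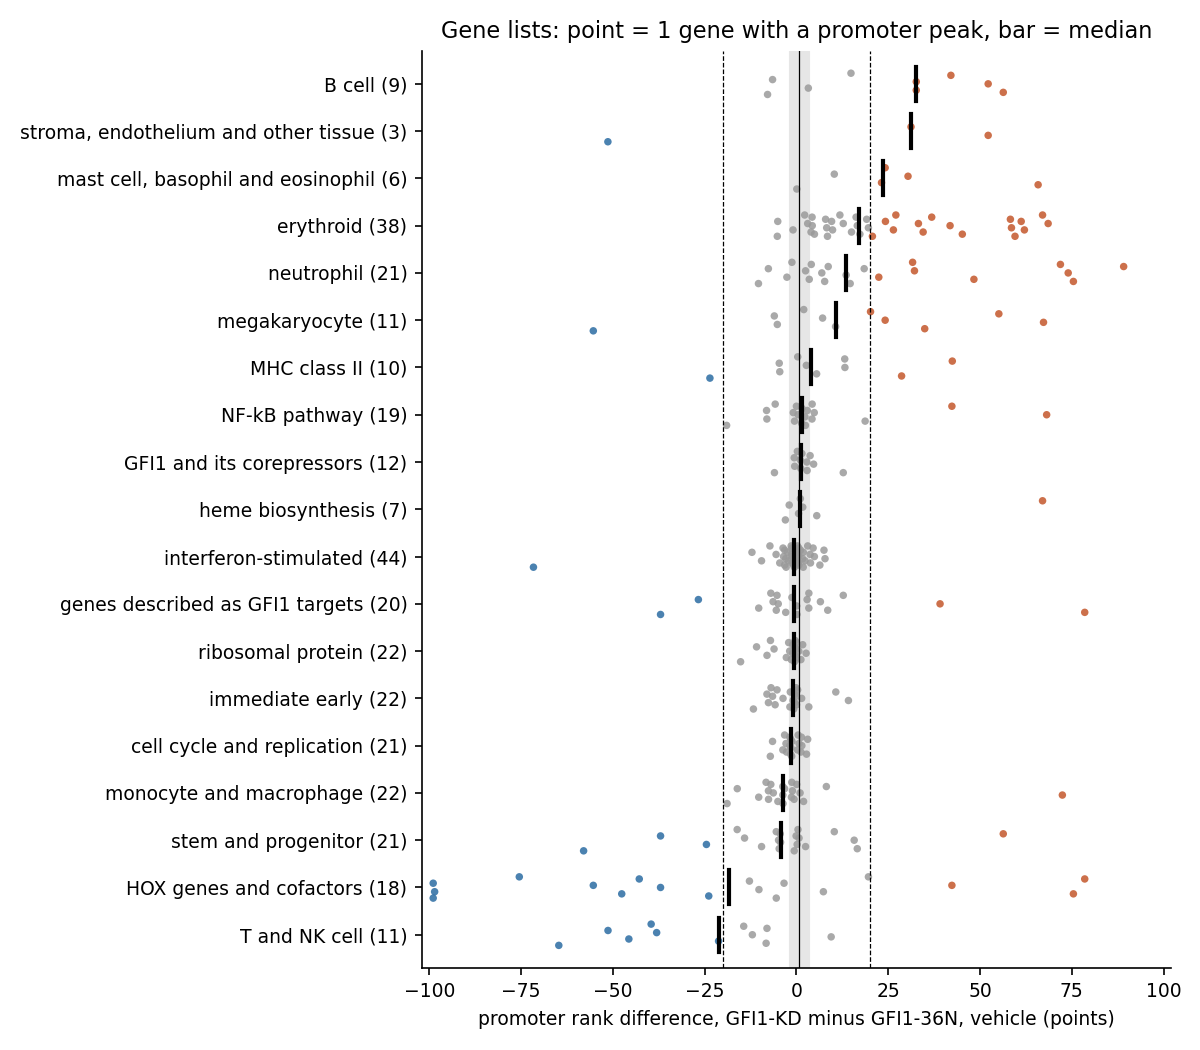
Promoter rank difference, *GFI1-KD* minus *GFI1-36N* in points (x axis), of each gene with a promoter peak in 19 lists (rows, number of genes in brackets). Black bars are list medians, dashed lines the 20-point threshold, and the thin line with its grey band the median (0.57) and quartiles of all genes. Erythroid members spread to the right and HOX and T and NK cell members to the left, while ribosomal, cell cycle and immediate early genes stay within 20 points.

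Of the 12 genes with the widest difference in favour of *GFI1-KD*, 6 held. These were *Myef2*, a repressor of myelin genes (rank 90.4 with 190 fragments), *Plcb1*, a phospholipase C (86.2 with 157), *Zcchc3*, a zinc finger protein (86.0 with 155), *Ctnnd1*, which encodes p120 catenin (85.2 with 149), *Bace1*, a protease (84.9 with 146), and *Zfp11* (83.9 with 138), none of which had a peak in *GFI1-36N*. The others, *Tmem88*, *Exoc3l*, *Ttc23*, *S100a9*, *Oscar* and *Bricd5*, had summits between 1434 and 3209 bp from the TSS. Of the 12 on the *GFI1-36N* side 8 held. Apart from *Hoxc4*, *Hoxc6*, *Hoxa10* and *Ifi44* these were *Zfpm2*, a GATA cofactor (rank 97.5 with 202 fragments), *Klhl4* (82.6 with 100), *Gbgt1*, a glycosyltransferase (76.0 with 69), all with no peak in *GFI1-KD*, and the interferon-inducible *Ifi213* (79.5 with 84 fragments against 1.45 with 31). *Hoxc5*, *Mab21l2*, *Irx5* and *Mmp23* did not hold. Of the 14 genes that held, 13 had no peak in the other library, and *Hoxc4*, *Hoxc6* and *Zfpm2* were the 3 with over 200 fragments. The *Hoxc4* summit lay 3824 bp from the TSS.

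Away from promoters the libraries shared less. Peaks of both lists were merged where they overlapped, and 34249 merged sites lay outside all promoters. Of these distal sites 14014 (40.9%) were found in both libraries, 11213 in *GFI1-KD* alone and 9022 in *GFI1-36N* alone, against 85.6% in both for sites at promoters. *GFI1-KD* thus held 55.4% of the distal sites found in 1 library (54.7% to 56.1%), but 50.5% when peaks were limited to a −log10 q of at least 5. Introns held 20054 of the distal sites, regions between genes 12536 and exons 1659, and *GFI1-KD* held 56.3%, 53.9% and 54.2% of those found in 1 library. Sites of 1 library were narrow and weak, with a median width of 333 bp and 25 fragments in *GFI1-KD* and 294 bp and 23 fragments in *GFI1-36N*, against 823 bp and 36 fragments for sites in both. Only 11.5% of the former and 11% of the latter reached rank 50, compared with 64.8% of the shared sites. Within the shared sites 2107 ranked higher in *GFI1-KD* and 1975 in *GFI1-36N* by at least 20 points.

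Distal sites followed the promoter of the closest gene. Within 100 kb of genes whose promoter was called higher in *GFI1-KD*, 739 distal sites were found in *GFI1-KD* alone and 192 in *GFI1-36N* alone, so that *GFI1-KD* held 79.4% (76.7% to 81.9%). At genes called higher in *GFI1-36N* the numbers were 52 and 273, or 16.0% (12.4% to 20.4%). At genes not called they were 8389 and 6577, or 56.1% (55.3% to 56.8%). Promoter and distal peaks come from the same libraries and are not independent of each other.

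Single loci collected many sites of 1 library. The widest surplus in *GFI1-KD* was at *Mpp7*, a polarity protein, with 25 sites in *GFI1-KD* alone and 2 in *GFI1-36N* alone. *Bcl11a*, a repressor known for silencing fetal globin, had 20 and 0, *Mgll*, a monoglyceride lipase, 18 and 0, *Agpat4*, an acyltransferase, and *Gda*, the guanine deaminase, 17 and 0 each, and *Cd24a*, a surface antigen of erythroid, B-lymphoid and neutrophil precursors, 15 and 1. On the *GFI1-36N* side *Fam49b* had 0 sites in *GFI1-KD* alone and 24 in *GFI1-36N* alone, *Zmiz1*, a transcriptional coactivator, 2 and 25, *Irf8* 0 and 19, *Otulinl* and *Stard3nl* 0 and 17 each, and *Foxp1*, a forkhead repressor, 3 and 17. The promoters of these genes had peaks in both libraries, with ranks between 63.2 and 97.6.

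The strongest distal sites of 1 library were higher and wider in *GFI1-36N*. The site at *Hoxc6*, chr15:102995057-103003869, was 8813 bp wide with 234 fragments and rank 98.7. Those closest to *Ascc3*, *Adk*, *Zcchc7* and *Phip* lay in introns and were between 6203 and 9774 bp wide with 161 to 197 fragments, and that closest to *Mlana* was 1838 bp wide with 172 fragments. All 6 had a peak in both curcumin libraries. In *GFI1-KD* the highest was an intergenic site 89948 bp from the *Vps8* TSS, 2106 bp wide with 203 fragments and rank 91.9. The next, closest to *Sdccag8*, *Mpp7*, *Ddx19a*, *Hpcal1* and *Cts3*, had 94 to 142 fragments. The sites closest to *Vps8*, *Mpp7*, *Hpcal1* and *Cts3* likewise had a peak in both curcumin libraries. That closest to *Sdccag8* had one in *GFI1-36N* curcumin only, and that closest to *Ddx19a* in *GFI1-KD* curcumin only. Near list members the highest were those at *Hlf* (rank 75.8 with 82 fragments, 3059 bp from the TSS) and *Rhag* (68.6 with 55 fragments) in *GFI1-KD*, and those at *Hoxc6*, *Hoxc8* (65 fragments), *Pbx3* (74.0 with 62) and *Irf8* (68.4 with 48, 74256 bp from the TSS) in *GFI1-36N*.

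Shares of windows with a motif were compared between the classes. The GFI1 motif was found in 10.4% (9.84% to 11%) of the summit windows of *GFI1-KD*-alone sites and in 11.4% (10.8% to 12.1%) of *GFI1-36N*-alone sites. The GATA motif was found in 16.3% and 15.4%, beside 15.1% of all distal sites, and the PU.1 motif in 14.3% (13.7% to 15.0%) and 16.4% (15.6% to 17.1%), beside 15.6%. The IRF motif was found in 6.74% (6.29% to 7.22%) and 8.02% (7.48% to 8.60%), beside 7.71%. Shares were 7.91% and 7.74% for C/EBP, 16.3% and 17.2% for RUNX, 5.88% and 6.38% for AP-1, and 15.6% and 16.1% for MEIS. The intervals cover counting error within 1 library per genotype, and a difference between genotypes was not tested. At sites of rank 50 or more the PU.1 shares were 12.6% (10.9% to 14.5%) and 16.9% (14.7% to 19.3%). The IRF shares were 6.84% (5.59% to 8.36%) and 8.94% (7.32% to 10.9%) there, with intervals that overlapped. The order of the GATA shares turned there, with 14.7% (12.9% to 16.7%) and 16.5% (14.3% to 18.9%), and these intervals overlapped. The GC content of these windows was 47.9% in *GFI1-KD*-alone, 48.6% in *GFI1-36N*-alone and 50.5% in shared sites. A match describes the sequence and is not evidence that a factor binds there.

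The curcumin libraries with the same strain labels come from further mice and were used to see whether the differences recurred. By the list names the *GFI1-36N* vehicle mouse was heterozygous and the *GFI1-36N* curcumin mouse homozygous, so that treatment and allele number cannot be told apart there. They are treated and also 1 library each, so they are not replicates. Between them the median promoter difference over 11677 genes was −5.86 points, with 1.07% of genes called higher in *GFI1-KD* and 11.8% in *GFI1-36N*. Of 324 genes higher in *GFI1-36N* with vehicle, 178 (54.9%) were called higher in *GFI1-36N* with curcumin too, and 8 (2.47%) the other way. Of 848 genes higher in *GFI1-KD* with vehicle, 70 (8.25%) were called in the same direction and 340 (40.1%) in the opposite one. Most of all genes rank high in these lists, so that the shares over all genes are no baseline for the called ones.

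The distal sites gave a similar picture. Of *GFI1-36N*-alone sites of rank 50 or more, 83.4% (80.9% to 85.6%) had a peak in *GFI1-36N* curcumin and 58.9% (55.8% to 61.9%) in *GFI1-KD* curcumin. Of *GFI1-KD*-alone sites, 21.6% (19.5% to 24.0%) had a peak in *GFI1-KD* curcumin and 47.9% (45.2% to 50.6%) in *GFI1-36N* curcumin. Neither curcumin library had a peak at 47.0% of the *GFI1-KD*-alone sites, at 9.97% of the *GFI1-36N*-alone sites and at 3.12% of shared sites. *Gata1* had no peak in *GFI1-KD* curcumin and rank 34.3 in *GFI1-36N* curcumin, and *Alas2*, *Epb42*, *Hbb-bs*, *Retnlg* and *Ly6g* had a peak in neither. *Epor* had none in *GFI1-KD* curcumin and rank 68.4 in *GFI1-36N* curcumin. The lists themselves differ in length, with 49213 peaks in *GFI1-36N* curcumin and 30784 in *GFI1-KD* curcumin.

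**Figure D5:**
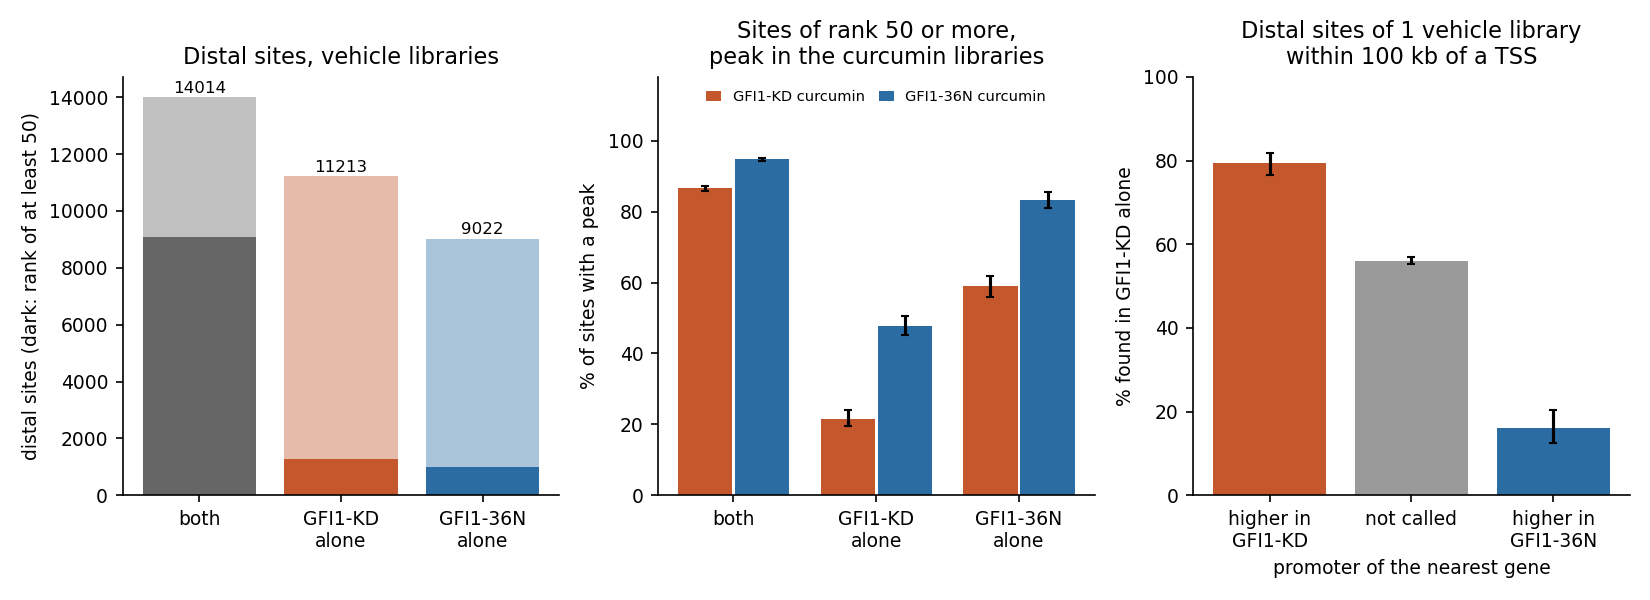
Left, number of distal sites in both vehicle libraries or in 1 alone, with sites of rank 50 or more in dark colour. Middle, percentage of the sites of rank 50 or more with a peak in each curcumin library, and right, percentage found in *GFI1-KD* alone among distal sites of 1 library by the promoter call of the nearest gene, both with Wilson 95% intervals. *GFI1-36N*-alone sites recur at 83.4% in *GFI1-36N* curcumin, *GFI1-KD*-alone sites at 21.6% in *GFI1-KD* curcumin, and the right panel falls from 79.4% to 16.0%.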

How the data were processed

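H3K9ac ChIP-seq of frozen BM cells was compared between the vehicle libraries of *GFI1-KD* and *GFI1-36N* mice, 1 library each. The authors trimmed adapters with Trim Galore, aligned the reads with BWA-MEM to mm10, ran MACS2 on each library and removed peaks in ENCODE black list regions. The submitters' processing notes also name SAMtools, Picard and deepTools, without versions. Control, threshold and duplicate handling are not given in the sources used here. The deposited fold enrichment is a ratio to the local background. The deposited −log10 p and −log10 q and the deposited integer score come from the same caller, and none of these values is normalized between libraries. Peaks with tied fold enrichment share a rank.

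Peak numbers are consecutive along the genome, except for 735 of 40007 numbers (1.84%) in *GFI1-KD* and 762 of 40326 (1.89%) in *GFI1-36N*. Promoters and sites within these 272 and 264 stretches were not analysed here, which left out 1281 of 21938 genes, 21 names of the gene lists and 821 of 47740 merged sites. A further 386 genes were not analysed in the curcumin libraries. This departs from the design as first written, and the values without it are given among the alternatives.

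Python 3.11.15, numpy 2.4.6, scipy 1.17.1, pandas 2.3.3 and matplotlib 3.10.9 were used, with GENCODE release M21 basic annotation. A promoter was 1000 bp on each side of any TSS, overlap was at least 1 bp, and distal sites were assigned to the nearest TSS within 100 kb. Summit fragments were recovered as the whole numbers for which MACS2's Poisson test gives the deposited −log10 p within 0.002. All of 4276 summits simulated with the same formula were recovered, which checks the code and not the formula. In simulated lists with the peaks of 200 of 11097 promoter genes removed, all 200 were found without a peak, and 37 others shared a removed peak. Height ratios are summit fragments divided by the genome background, with exact Clopper-Pearson intervals. Since each group is 1 library, mice could not be compared by a test.

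The comparison, its members and the gene lists were chosen with earlier results of these data known. By rule the genes named are *Gfi1* and *Gfi1b*, up to 3 members of each list with the widest difference in each direction, the 12 widest differences over all genes in each direction, and the 6 highest distal sites and 6 loci per library. Other members are named for their role or chosen after their values were seen, and a few that the rule names are not reported here. The alternatives changed the threshold on −log10 q, the number of peaks, the window, the place of the summit, the set ranked, the call and the definition of distal and shared sites.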

Additional observations from a re-analysis of the deposited data

Results flagged for a closer look

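The difference between the libraries labelled *GFI1-KD* and *GFI1-36N* went in opposite directions with vehicle and with curcumin in 4 gene lists, by at least 10 points of median promoter rank in each. These contrasts between pairs were not tested, since each group is 1 library. The erythroid median was 16.9 points higher in *GFI1-KD* with vehicle and −10.5 points with curcumin. In neutrophil genes the values were 13.5 and −15.2, in megakaryocyte genes 10.7 and −28.5, and in mast cell, basophil and eosinophil genes 23.7 and −33.2. Over all genes the median was 0.57 with vehicle and −5.86 with curcumin. The curcumin pair called 13 erythroid genes and 7 neutrophil genes higher in *GFI1-36N* and 0 of either list higher in *GFI1-KD*. The shares over all genes were 11.8% and 1.07%. The mast cell list rests on 6 genes with a peak and the megakaryocyte list on 11.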

How the results depend on the processing

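Of 40 shares and counts recomputed under the alternatives 29 stayed within a range set around the reported value, and of 190 medians of 19 lists 183 did. The range was the 95% interval of the reported share or median, and a fixed factor for counts. It is wide for small lists and is then no measure of stability. A B cell median of 3.24 still fell within the range of the reported 32.6 (−6.51 to 52.2). The share of distal sites held by *GFI1-KD* was 50.5% at a −log10 q of at least 5 and 53.6% beyond 5 kb of a TSS, and the share of distal sites in both libraries was 43.6% at that threshold, 46.7% with the 20000 top peaks and 39.2% when summits had to lie within 500 bp. Among promoters marked in 1 library, *GFI1-KD* held 68.6% with the 3 kb window and 67.5% with the summit inside the promoter. Genes called higher in *GFI1-KD* numbered 549 when ranked among promoter peaks and 299 with a peak in both libraries, and those higher in *GFI1-36N* 141 with a peak in both and 202 at 30 points. The last 3 settings remove genes or tighten the call by construction. The T and NK cell median was −4.58 when ranked among promoter peaks, and for this setting the cause was not tested. The erythroid median ranged from 13.9 to 23.9, the neutrophil from 7.69 to 22.3 and the HOX median from −26.4 to −7.86. The median of GFI1 targets, near 0, ranged from −2.26 to 1.07, and that of 3 stroma genes from −10.1 to 31.6. Chosen after the data were seen, ranks by fragments called 818 and 310 genes, and keeping the stretches of absent peak numbers 901 and 356, with 71.6% of promoters and 55.3% of distal sites of 1 library in *GFI1-KD* and 40.8% of distal sites in both. Rank differences of weak peaks rest on about 20 to 40 fragments. No paired analysis was possible because each group is 1 library.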

Other observations

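Sequence at called promoters differed in composition from other promoters. The 100 bases on each side of the summit had a GC content of 63.2% at promoters called higher in *GFI1-KD* and 60% at those called higher in *GFI1-36N*, against 65.9% and 65.3% over all promoter peaks of the respective library. The PU.1 motif, of a factor that directs myeloid and lymphoid genes, was found at 14.9% (Wilson 95% interval 11.4% to 19.2%) of the 322 windows higher in *GFI1-36N*, against 9.77% of all promoter windows of that library, and at 7.33% (5.75% to 9.31%) of the 832 windows higher in *GFI1-KD*, against 9.47%. The GFI1 motif was found at 6.83% (4.55% to 10.1%) and 3.00% (2.04% to 4.40%) of these windows, beside 2.97% and 2.63% of all promoter windows of *GFI1-36N* and *GFI1-KD*. These shares are descriptions and were not adjusted for GC content.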
